A study of Homo sapiens with 6 samples.

Results

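The effect of the TAZ siRNA siTAZ #2 on the transcriptome of HFL-1, a human fetal lung fibroblast line, was examined across all genes with a symbol. The comparison rests on 4 of the 6 libraries of the series, 2 from cells given the non-targeting control siRNA (siNTC) and 2 from cells given siTAZ #2, and it was fitted on these 4 libraries alone. Both groups were transfected with Lipofectamine RNAiMAX, and total RNA was taken 48 h later and sequenced on an Ion Proton. The 2 libraries left out of that fit carried another TAZ siRNA, siTAZ #1. Of 23355 genes with a symbol, 13754 passed edgeR's filter on low counts and were tested. The model is 1 cell line, 1 TAZ siRNA sequence and 1 time point, with 2 replicates a group that the submitters call biological.

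TAZ, encoded by WWTR1, is a transcriptional coactivator that carries no DNA-binding domain and reaches its target genes through the TEAD transcription factors. The Hippo kinases (MST1/2 and LATS1/2) phosphorylate TAZ and its paralog YAP, which keeps both out of the nucleus. On stiff matrix TAZ and YAP are nuclear, and in fibroblasts they are known for driving contractile, matrix and cell cycle genes.

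WWTR1 (chr3:149235022-149454501 of GRCh37, minus strand) was measured at 132 and 130.5 CPM with siNTC and 45.7 and 43.1 CPM with siTAZ #2. CPM here are counts relative to library size after scaling the libraries by the trimmed mean of M-values (TMM). Its log2 fold change was -1.56 (SE 0.11), with an FDR of 7.07e-10 by edgeR's quasi-likelihood test after Benjamini-Hochberg adjustment over all genes tested. The symbol TAZ in the table belongs to another gene, tafazzin, and was not used for this check. Across the genome 3024 genes (22%) were lower and 3073 (22.3%) higher with siTAZ #2 at an FDR under 0.05, and these shares are the background for every count below. Of the called genes, 854 fell and 987 rose at least 2-fold, and 158 fell and 227 rose at least 4-fold. The higher genes had a median GC content of 51.5% and the lower genes of 47.0%, against 48.2% in all genes tested. With an offset for GC content in the fit, 3047 genes were lower and 2932 higher, and 5206 calls were shared with those above.

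**Figure D1:**
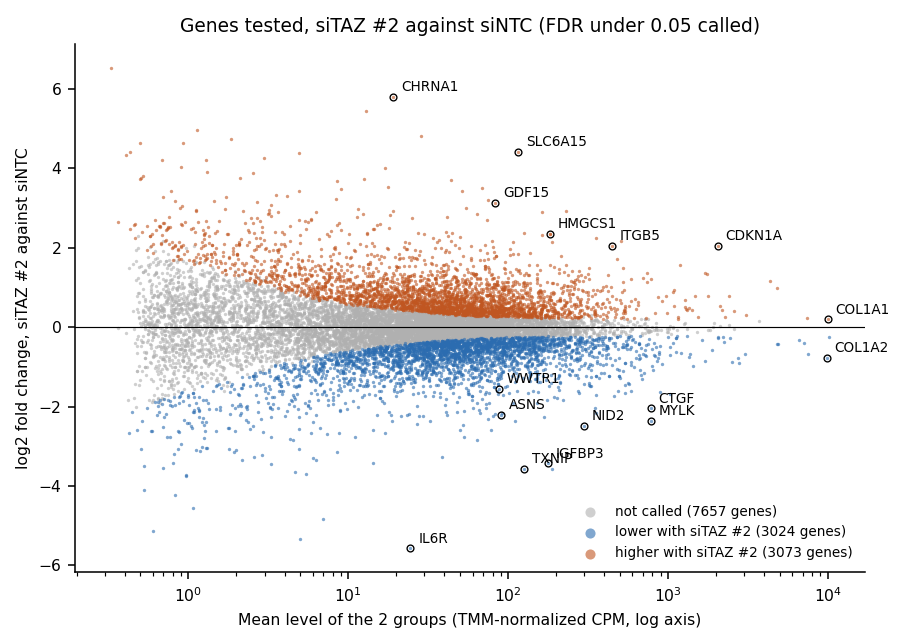
Each point is 1 of the 13754 genes tested, with its mean level over both groups on a log axis (TMM-normalized CPM) and its log2 fold change, siTAZ #2 against siNTC. Genes called lower (3024) and higher (3073) at an FDR under 0.05 are found over the whole range of levels, and 16 genes described in the text are named.

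The 4 libraries held 15990711 to 21009532 counts on genes with a symbol, and TMM factors lay between 0.981 and 1.03. Replicates were further apart than counting noise alone would give (mean chi-square of a gene 5.56 between the siNTC libraries and 11.9 between the siTAZ #2 libraries), and the biological coefficient of variation was 0.108. All 12 fibroblast markers were detected. Their summed level was 43392 to 43493 CPM with siNTC and 33424 to 35531 CPM with siTAZ #2. The markers did not move together, since 7 of the 12 were lower and 4 higher. COL1A2 was at 12257 and 12597 CPM with siNTC and 6676 and 7847 CPM with siTAZ #2. THY1 was at 440 and 451 CPM with siNTC and 597 and 657 CPM with siTAZ #2. Of the markers of other cells, 7 of 13 epithelial, 6 of 8 endothelial, 9 of 11 blood and immune and 3 of 5 mesothelial markers were under 1 CPM in all 4 libraries. The summed blood and immune markers went from between 75.7 and 75.8 CPM to between 40.2 and 49.97 CPM, and most of that sum was CD68 (73.9 and 74.9 CPM with siNTC and 37.5 and 48.4 CPM with siTAZ #2). LYZ and CD3E of that list had a count of 0 in all 4 libraries. The summed endothelial markers were at 43.0 CPM with siNTC and at 26.7 to 31.6 CPM with siTAZ #2, mostly TEK (41.3 and 40.8 CPM with siNTC and 23.8 and 27.8 CPM with siTAZ #2). Summed epithelial markers were at 54.0 to 54.6 and at 66.6 to 71.0 CPM, mostly the keratin KRT18, and summed mesothelial markers at 7.43 to 9.96 and at 14.1 to 15.5 CPM, with CALB2 (calretinin) called higher (6.41 and 4.09 CPM with siNTC and 11.5 and 12.7 CPM with siTAZ #2). The part of these markers in the results was not tested. In bulk RNA, fewer cells of a type and less RNA per cell cannot be told apart.

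The largest decrease was in IL6R, the receptor subunit that binds interleukin-6. IL6R (chr1:154377669-154441926, plus strand) was at 48.6 and 47.6 CPM with siNTC and 0.881 and 1.15 CPM with siTAZ #2. This was a log2 fold change of -5.58 (SE 0.23, FDR 8.42e-13). ADH1B, an alcohol dehydrogenase, went from 9.84 and 9.82 CPM to 0.278 and 0.181 CPM, a log2 fold change of -5.34. KCNN2, a calcium-activated potassium channel, SAMD12, the guanylate cyclase subunits GUCY1A2 and GUCY1B3 and the BMP-binding protein BMPER also fell, 8.81-fold or more, from levels of 5.14 to 16.9 CPM in the siNTC libraries. Among genes with more counts, PPAP2B, a lipid phosphatase of the plasma membrane (chr1:56960433-57110974, minus strand), was at 353 and 343 CPM with siNTC and 29.8 and 28.4 CPM with siTAZ #2. TXNIP, which binds thioredoxin and limits glucose uptake (chr1:145438490-145442635, plus strand), was at 231 and 233 CPM with siNTC and 17.3 and 21.8 CPM with siTAZ #2. Their log2 fold changes were -3.58 and -3.57. KLF4, a zinc-finger transcription factor, was at 23 and 29.3 CPM with siNTC and 1.53 and 3.51 CPM with siTAZ #2, and KIAA1199, a hyaluronan-degrading protein, at 66.8 and 74 CPM with siNTC and 8.35 and 6.11 CPM with siTAZ #2. The other genes among the 15 largest decreases were IGFBP3, B3GALT2, GDAP1 and the cationic amino acid transporter family member SLC7A14, with log2 fold changes of -3.43 to -3.06.

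In the same ranking, which leaves out called genes with fewer counts, CHRNA1, the alpha subunit of the muscle acetylcholine receptor, rose most. CHRNA1 (chr2:175612320-175652663, minus strand) was at 0.825 and 0.503 CPM with siNTC and 34.1 and 41.1 CPM with siTAZ #2, a log2 fold change of 5.81 (SE 0.28, FDR 5.87e-12). ICOSLG, a costimulatory ligand of T cells, was at 0.762 and 0.378 CPM with siNTC and 23.4 and 26.9 CPM with siTAZ #2. Both genes were near the limit of detection in control cells. SLC6A15, a transporter of neutral amino acids (chr12:85253270-85307408, minus strand), was at 11.7 and 9.06 CPM with siNTC and 203 and 237 CPM with siTAZ #2, and this change of 4.41 on the log2 scale took place in a gene well covered in all 4 libraries. MEST, an imprinted gene, went from 9.58 and 12.8 to 134 and 118 CPM. NEDD9, a scaffold protein of focal adhesions, went from 11 and 6.61 to 87.5 and 102 CPM, and AMIGO2, a leucine-rich adhesion protein, from 6.28 and 6.23 to 81.6 and 81.1 CPM. The remaining genes of the 15 largest increases, CCDC68, TYRP1, AQP1, PRR5L, DHRS3, ROBO2, RASGRP3, TSPAN11 and SYTL5, had log2 fold changes of 3.44 to 4.82 and started from at most 3.17 CPM. AQP1, a water channel, differed most between replicates, with 3.9 and 7.44 CPM in the siTAZ #2 libraries.

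**Figure D2:**
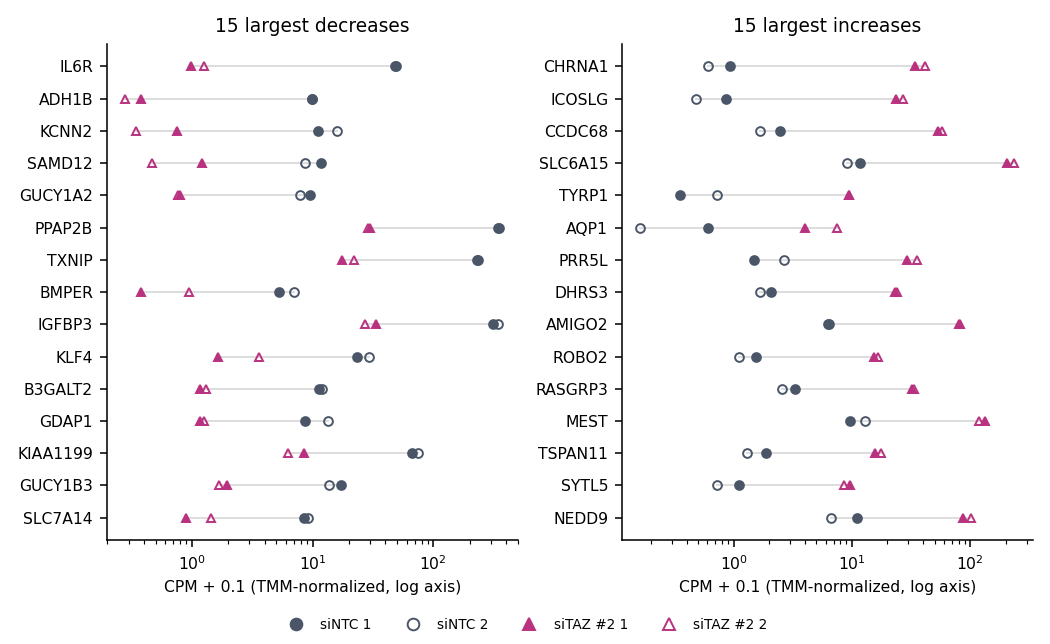
The 15 largest decreases (left) and increases (right) among called genes are shown as TMM-normalized CPM + 0.1 in each library on a log axis, with circles for siNTC and triangles for siTAZ #2 (filled, replicate 1; open, replicate 2). In each of the 30 genes the 2 siTAZ #2 libraries lie on the same side of both siNTC libraries.

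Within the Hippo pathway, 8 of 27 genes were lower and 8 higher, with a median log2 fold change of -0.15 beside 0.01 for all genes. YAP1, the paralog of TAZ, was higher, at 211 and 195 CPM with siNTC and 320.1 and 266 CPM with siTAZ #2 (log2 fold change 0.53, SE 0.10, FDR 2.34e-04). Among the TEAD factors, TEAD2 rose by 0.98 and TEAD3 by 0.54 on the log2 scale, while TEAD1 was not called (0.09, FDR 0.454). LATS1, the kinase that phosphorylates YAP and TAZ, went from 15.1 and 13.4 to 33.4 and 38.2 CPM and STK3 (MST2), the kinase upstream of it, from 16.9 and 19.4 to 28.6 and 30.3 CPM. The cadherin DCHS1 was higher by 1.01. Scaffold proteins of the pathway were lower, with log2 fold changes of -1.31 for WWC1 (KIBRA), -1.29 for PTPN14 and -0.92 for AMOTL1, and for the giant cadherin FAT1 it was -0.37. The changes in TEAD4, NF2, LATS2 and MOB1B were of 1.46-fold or less, and each lost its call without 1 of the libraries or under another scaling.

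Of 23 canonical YAP/TAZ targets, 11 were lower and 8 higher, with a median of -0.24. The shares in both directions were above the background of 22% and 22.3%. CTGF, a matricellular protein, was at 1283 and 1231 CPM with siNTC and 298 and 310.1 CPM with siTAZ #2. DOCK5, an exchange factor for Rac, was at 30.8 and 31.7 CPM with siNTC and 11.5 and 11.6 CPM with siTAZ #2, and its log2 fold change was -1.44 (SE 0.17). On the other side F3, the coagulation initiator tissue factor, was at 509 and 438 CPM with siNTC and 1112 and 1081 CPM with siTAZ #2, and TNFRSF12A, the receptor of TWEAK, at 124 and 106 CPM with siNTC and 346 and 341 CPM with siTAZ #2. TGFB2 rose by 0.94 on the log2 scale. The CTGF promoter is shown since it holds 3 copies of the letters GGAATG, a TEAD motif, before the start, at chr6:131951442-131951561 (minus strand) of GRCh38.p14, from RefSeq. Capitals mark the motif, which was found on either strand in 14.1% of the 27305 RefSeq promoters of this length (250 bases before to 50 after the start).

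CTGF: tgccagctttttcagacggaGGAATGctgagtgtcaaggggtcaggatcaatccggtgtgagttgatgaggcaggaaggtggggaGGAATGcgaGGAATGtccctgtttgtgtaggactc

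Gene lists were then read by their counts of called genes and their medians. Of 58 lists, those of the mitotic spindle, DNA replication, amino acid synthesis and translation held few higher genes and many lower ones. Those of cholesterol synthesis, p53 targets, collagen crosslinking, and other collagens, laminins and basement membrane held the reverse.

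**Figure D3:**
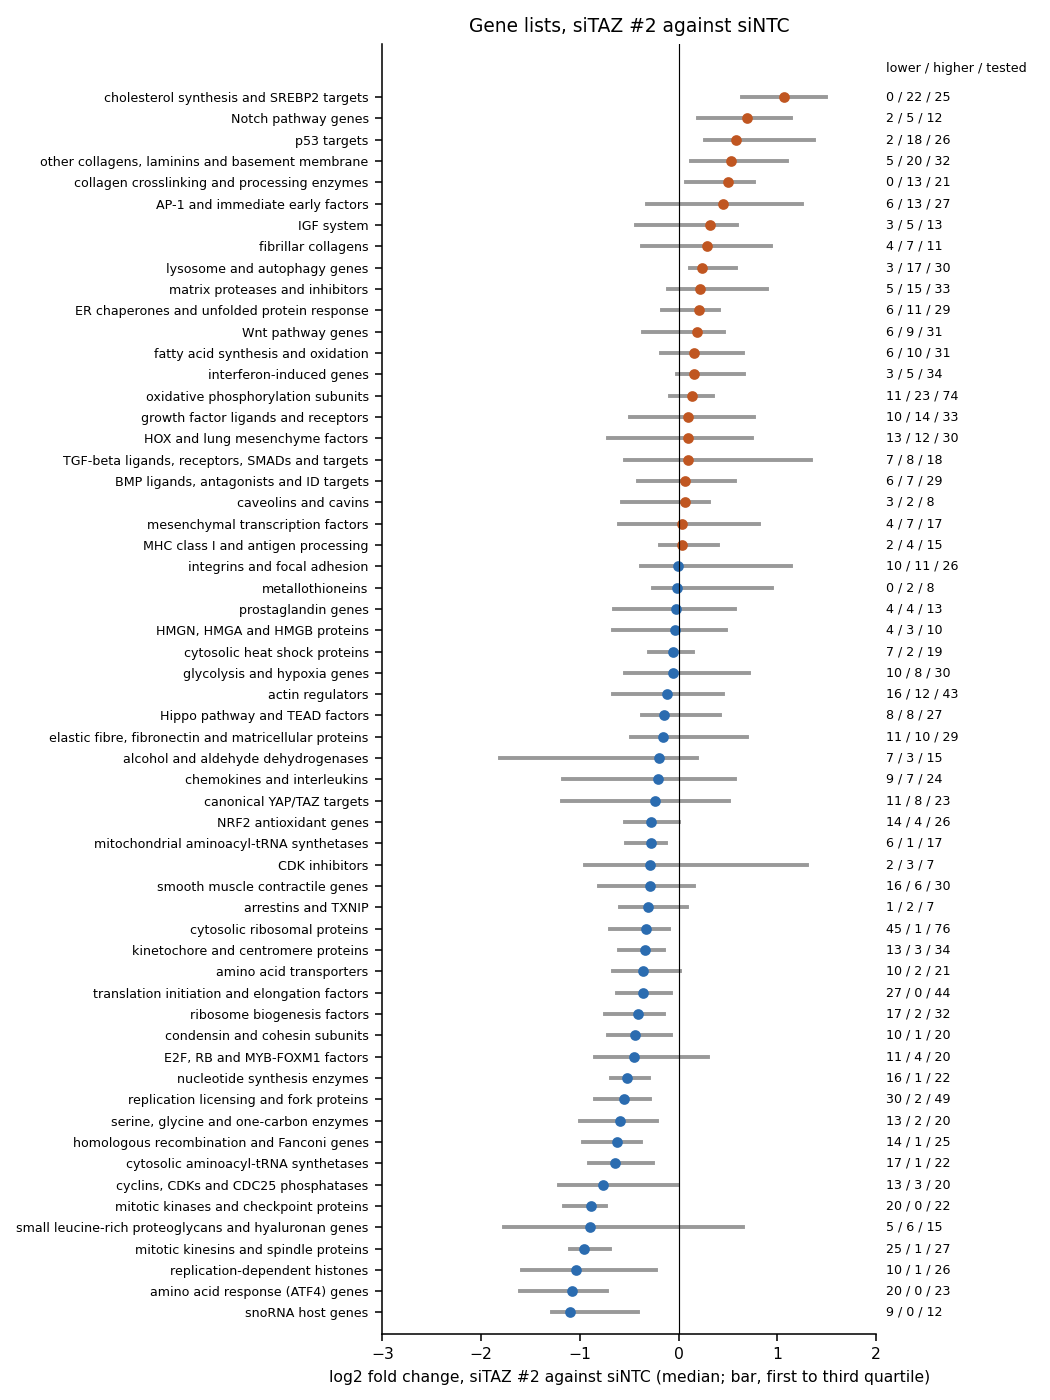
For each of the 58 gene lists, the point is the median log2 fold change of its tested genes (blue, below 0; orange, above 0) and the bar runs from the first to the third quartile, with the counts lower, higher and tested at the right. Cholesterol synthesis has the highest median (1.07), and snoRNA host genes (-1.10) and ATF4 genes (-1.08) have the lowest. The histone median (-1.04) lies close to these but was -0.54 and -0.66 in the 2 siTAZ #2 libraries on the scale of log2(CPM + 0.5), and most histone genes had few counts.

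Genes of mitosis were lower with siTAZ #2. Among 27 mitotic kinesins and spindle proteins, 25 were lower and 1 higher, with a median log2 fold change of -0.96 (-0.76 and -0.96 in the 2 siTAZ #2 libraries, as log2(CPM + 0.5) minus the siNTC mean). KIF20A, a kinesin of cytokinesis, was at 316 and 307 CPM with siNTC and 88.1 and 94.1 CPM with siTAZ #2, a log2 fold change of -1.77 (SE 0.09, FDR 2.43e-11). CENPE, the kinesin that aligns chromosomes, was at 118 and 125 CPM with siNTC and 43.9 and 42 CPM with siTAZ #2, and ANLN, the anillin of the contractile ring, at 297 and 319 CPM with siNTC and 122 and 113 CPM with siTAZ #2. In all 3 genes the siTAZ #2 libraries lay far below the siNTC libraries, and the replicates were close to each other. KIF2C, which depolymerizes microtubules at kinetochores, fell by 1.67 on the log2 scale, and its relative KIF2A, which acts at spindle poles and in neurons, was the exception and rose by 0.87. The mitotic kinases and checkpoint proteins showed 20 lower genes of 22 and 0 higher, with a median of -0.89 (-0.86 and -0.99). PTTG1 (securin, the inhibitor of separase) was at 81.6 and 86.2 CPM with siNTC and 29.2 and 26.7 CPM with siTAZ #2. CDC20, an activator of the anaphase-promoting complex, BUB1, a checkpoint kinase, and CDCA8 (borealin) had log2 fold changes of -1.31, -1.31 and -1.24.

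Of 34 kinetochore and centromere proteins, 13 were lower and 3 higher, with a median of -0.34. SKA1 and NDC80, which couple kinetochores to microtubules, had log2 fold changes of -1.31 and -1.18, whereas CENPK rose by 1.21. In the condensin and cohesin list 10 of 20 were lower, led by the condensin subunits NCAPD2 (214 and 212 CPM with siNTC and 90.5 and 81.3 CPM with siTAZ #2) and NCAPH. Cyclins, CDKs and CDC25 phosphatases held 13 lower and 3 higher genes of 20. CCNB1, the cyclin of mitotic entry, was at 224 and 206 CPM with siNTC and 91.9 and 88.6 CPM with siTAZ #2, and CDK2, the kinase of the G1/S transition, at 98.6 and 94.7 CPM with siNTC and 36.7 and 42.5 CPM with siTAZ #2. In contrast CCND1 and CDK6, the cyclin and kinase of early G1 phase, were higher, CCND1 at 906 and 889.8 CPM with siNTC and 1269 and 1333 CPM with siTAZ #2 and CDK6 at 64.5 and 59.8 CPM with siNTC and 145 and 126 CPM with siTAZ #2.

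Promoters of CCNB1 and of the spindle genes KIF20A, CENPE and ANLN are shown because each holds a short element found in many promoters of spindle genes. Of the 27 spindle genes, 25 had a promoter in the RefSeq table, and 21 of these (84%) held a cell cycle genes homology region (CHR, the letters TTTGAA or TTTAAA), against 24.3% of all promoters. The CCAAT box (CCAAT) was found in 17 of the 25 (68%), against 35.7% of all promoters. This box was not particular to spindle genes. It was in 22 of 27 promoters (81.5%) of the endoplasmic reticulum chaperone list, which had 6 lower and 11 higher genes of 29. Both strands were searched. The stretches below end before the start and are given on the strand of the gene, with the motifs in capitals: CCNB1 at chr5:69167043-69167145 (plus strand), KIF20A at chr5:138178998-138179096 (plus strand), CENPE at chr4:103198380-103198558 (minus strand) and ANLN at chr7:36389782-36389861 (plus strand) of GRCh38.p14. All 4 stretches hold a CHR, and those of CCNB1 and KIF20A also hold CCAAT boxes. A match describes these letters only, and binding was not measured.

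CCNB1: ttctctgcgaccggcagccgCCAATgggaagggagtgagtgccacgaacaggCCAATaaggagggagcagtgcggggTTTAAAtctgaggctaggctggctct
KIF20A: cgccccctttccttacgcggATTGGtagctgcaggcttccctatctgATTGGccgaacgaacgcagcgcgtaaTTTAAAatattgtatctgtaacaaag
CENPE: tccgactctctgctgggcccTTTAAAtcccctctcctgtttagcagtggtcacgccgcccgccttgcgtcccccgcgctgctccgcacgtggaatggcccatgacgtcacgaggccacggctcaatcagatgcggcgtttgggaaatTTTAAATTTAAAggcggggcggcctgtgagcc
ANLN: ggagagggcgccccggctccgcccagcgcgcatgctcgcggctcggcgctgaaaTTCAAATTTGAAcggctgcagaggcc

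DNA replication genes were lower as well. Of 49 genes for replication licensing and the fork, 30 were lower and 2 higher, with a median of -0.55 (-0.45 and -0.60 in the 2 libraries). MCM3, a subunit of the replicative helicase, was at 182 and 191 CPM with siNTC and 85.3 and 86 CPM with siTAZ #2, a log2 fold change of -1.12 (SE 0.10, FDR 1.71e-08). ORC1, a subunit of the origin recognition complex, and MCM10, which activates the helicase, changed by -1.27 and -1.15. RFC5, a subunit of the clamp loader, was higher, at 10.9 and 10.9 CPM with siNTC and 22.5 and 24.6 CPM with siTAZ #2, and ORC4 was called higher (0.54) but not without siNTC replicate 2 (0.44) or siTAZ #2 replicate 1 (0.17). Of 26 replication-dependent histones 10 were lower, 1 was higher and 15 were not called, and the best covered of the lower ones, HIST1H2BK, was at 58.6 and 49.7 CPM with siNTC and 11.4 and 9.68 CPM with siTAZ #2. Nucleotide synthesis enzymes held 16 lower genes of 22, among them IMPDH2, the rate-limiting enzyme of guanine nucleotide synthesis (253 and 244 CPM with siNTC and 98.4 and 99.2 CPM with siTAZ #2), and DUT, which removes dUTP (-1.28). Homologous recombination and Fanconi genes held 14 lower of 25 (median -0.63), among them RAD54L (27.2 and 27.6 CPM with siNTC and 11.4 and 11.3 CPM with siTAZ #2). Of 49 replication genes 43 had a promoter in the RefSeq table, and 20 of them (46.5%) held an E2F motif (TTTCCCGC, TTTGGCGC, TTTCGCGC or TTTGCCGC, either strand), against 3.33% of all promoters. A CHR was in 0 of the 43. The promoter of MCM3 is shown from chr6:52284857-52284936 (minus strand) of GRCh38.p14 with the E2F motif in capitals.

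MCM3: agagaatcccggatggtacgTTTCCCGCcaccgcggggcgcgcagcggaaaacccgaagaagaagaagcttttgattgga

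The factors that regulate these genes moved in both directions. E2F2, an activator E2F, was at 9.9 and 7.17 CPM with siNTC and 2.36 and 2.12 CPM with siTAZ #2, and E2F8, a repressor, fell by 1.06 on the log2 scale, while E2F5, a partner of the pocket proteins, rose by 1.13. RBL1 (p107) was at 26.7 and 24.5 CPM with siNTC and 13.6 and 12.4 CPM with siTAZ #2. In all, 11 of 20 genes of the E2F, RB and MYB-FOXM1 list were lower and 4 higher. The inhibitors of cyclin-dependent kinases were split too. CDKN1A (p21) was at 827 and 761 CPM with siNTC and 3118 and 3479 CPM with siTAZ #2, a log2 fold change of 2.05 (SE 0.08, FDR 8.42e-13), and CDKN2B (p15) at 6.92 and 6.42 CPM with siNTC and 20.2 and 27.3 CPM with siTAZ #2. CDKN1B (p27) moved the other way, at 96 and 85.4 CPM with siNTC and 35.2 and 33.1 CPM with siTAZ #2, as did CDKN2C (p18), at 33 and 41.2 CPM with siNTC and 16.6 and 16.6 CPM with siTAZ #2.

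Most targets of p53, the tumor suppressor that induces CDKN1A, were higher. Of 26 genes on the list, 18 were higher and 2 lower, with a median of 0.58 (0.66 and 0.61 in the 2 libraries). GDF15, a secreted stress cytokine, was at 16.1 and 17.9 CPM with siNTC and 139 and 161 CPM with siTAZ #2, the largest change of the list (3.14, SE 0.12). TP53INP1, a p53 cofactor in cell death, was at 20.4 and 13.6 CPM with siNTC and 66.8 and 60.1 CPM with siTAZ #2, and TNFRSF10C, a decoy receptor of TRAIL, at 3.68 and 5.22 CPM with siNTC and 15.1 and 19.2 CPM with siTAZ #2. MDM2, the ubiquitin ligase that p53 induces, was not called, at 107 and 93.3 CPM with siNTC and 119 and 101 CPM with siTAZ #2 (log2 fold change 0.14, FDR 0.321). SESN2 and PLK2, listed as p53 targets, fell by 0.77 and 0.63, and SESN2 is also on the list of ATF4 genes.

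**Figure D4:**
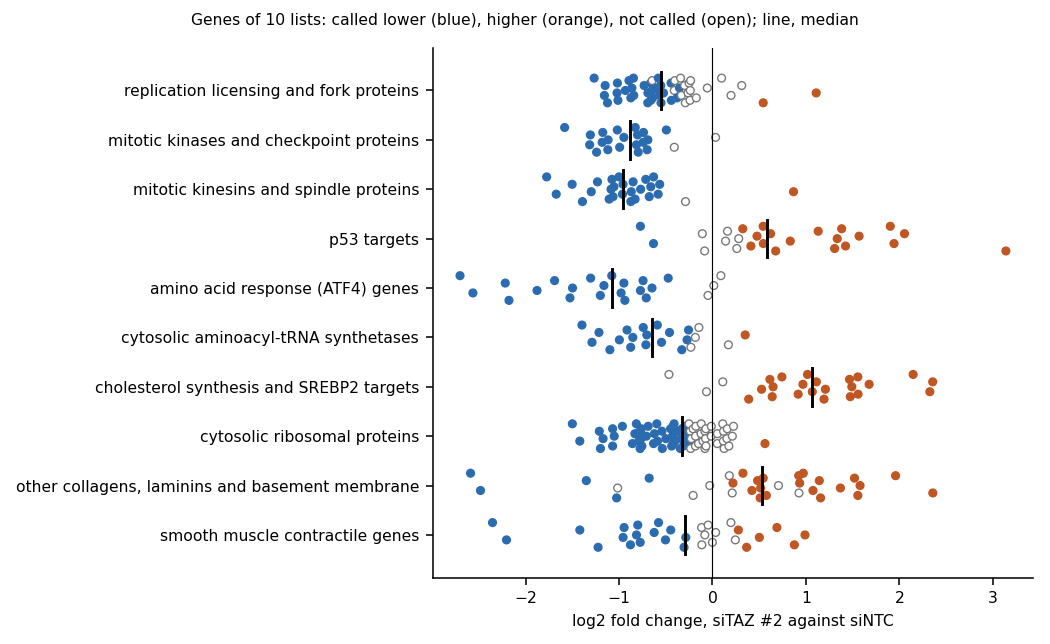
Each point is 1 tested gene of 10 gene lists at its log2 fold change, siTAZ #2 against siNTC (blue, lower; orange, higher; open, not called), and the black line is the median of the list. Lists of the mitotic spindle and amino acid response lie almost wholly below 0 and cholesterol synthesis almost wholly above it, while collagens and contractile genes reach to both sides.

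Genes of the amino acid response were lower. This response is run by ATF4, a transcription factor that is translated when amino acids are scarce, and its targets include amino acid synthesis enzymes, transporters and tRNA synthetases. In the list of ATF4 genes 20 of 23 were lower and 0 higher, with a median log2 fold change of -1.08 (-1.01 and -1.13 in the 2 libraries). ASNS, asparagine synthetase, was at 150.0 and 147 CPM with siNTC and 37.2 and 26.4 CPM with siTAZ #2, a log2 fold change of -2.22 (SE 0.13, FDR 1.38e-10). ALDH1L2, a mitochondrial folate enzyme, was at 130.2 and 140.3 CPM with siNTC and 29.5 and 30.2 CPM with siTAZ #2. The secreted peptides ADM2 and INHBE fell by 2.70 and 2.56 on the log2 scale. ATF4 itself, named after its values were seen, was at 521 and 532 CPM with siNTC and 231 and 239.6 CPM with siTAZ #2 (-1.16, FDR 2.24e-09). ATF3, ATF5 and CEBPB, other factors of the response, were not called, with log2 fold changes of -0.05, 0.01 and 0.09.

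The ASNS promoter is shown from chr7:97872417-97872496 (minus strand) of GRCh38.p14, since it holds a C/EBP-ATF response element (CARE, TGATGNAA, capitals). A promoter was found for 19 of the 23 ATF4 genes, and 3 of the 19 (15.8%) held a CARE on either strand, against 3.67% of all promoters.

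ASNS: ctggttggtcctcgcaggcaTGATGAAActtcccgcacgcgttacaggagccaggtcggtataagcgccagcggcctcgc

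Enzymes of serine, glycine and one-carbon metabolism held 13 lower and 2 higher genes of 20 (median -0.59). PHGDH, the first enzyme of serine synthesis, was at 213 and 221 CPM with siNTC and 84.9 and 90.6 CPM with siTAZ #2, and PSAT1, the next enzyme, at 88.9 and 104 CPM with siNTC and 40.9 and 28.3 CPM with siTAZ #2. MTHFD2, which oxidizes mitochondrial folate, changed by -1.65. Cytosolic aminoacyl-tRNA synthetases, which charge tRNAs with amino acids, held 17 lower genes of 22 (median -0.65, -0.60 and -0.66 in the 2 libraries). AARS, the alanine enzyme, was at 255 and 281 CPM with siNTC and 95.2 and 108 CPM with siTAZ #2, and GARS, the glycine enzyme, at 501 and 557 CPM with siNTC and 218 and 215 CPM with siTAZ #2. Of their 17 mitochondrial counterparts 6 were lower and 1 higher, and IARS2 (-1.13) and MARS2 (1.54) marked the ends. Of 21 amino acid transporters 10 were lower. SLC7A5 (LAT1) was at 216 and 239 CPM with siNTC and 91.2 and 84.6 CPM with siTAZ #2, SLC7A11, the cystine carrier, at 174 and 179 CPM with siNTC and 92.3 and 86.2 CPM with siTAZ #2, and SLC6A9, a glycine transporter, changed by -2.13, while SLC6A6, the taurine transporter, rose by 0.58.

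Genes of the translation machinery were lower too, with medians nearer to 0. Of 76 cytosolic ribosomal proteins, 45 were lower and 1 higher, with a median of -0.33. The 2 siTAZ #2 libraries differed here, with medians of -0.23 and -0.48 against the siNTC mean, and the median was -0.48 without replicate 1 and -0.23 without replicate 2. RPL13A was at 316 and 287 CPM with siNTC and 92.2 and 121 CPM with siTAZ #2 and RPL29 at 424 and 451 CPM with siNTC and 180.2 and 146 CPM with siTAZ #2, whereas RPS15 was higher, at 89.7 and 89.5 CPM with siNTC and 142 and 123 CPM with siTAZ #2. Ribosomal protein genes have many processed pseudogenes, and how reads shared with them were counted is not given in the sources used here. Translation initiation and elongation factors held 27 lower and 0 higher genes of 44, among them PABPC4, a poly(A)-binding protein (235 and 248 CPM with siNTC and 64.2 and 64.9 CPM with siTAZ #2), and EIF2S2, a subunit of eIF2 (-1.14). EIF3C, with the most negative value of that list (-2.39), was the exception among called genes of the lists named here in that its groups overlapped (6.98 and 1.01 CPM with siNTC and 1.21 and 0.242 CPM with siTAZ #2), and its call was lost without siNTC replicate 1 (-0.43). Ribosome biogenesis factors held 17 lower genes of 32, with nucleolin (NCL) at 781 and 807 CPM with siNTC and 298 and 281 CPM with siTAZ #2 and NOLC1 changed by -1.90. Of 12 snoRNA host genes, whose short-lived transcripts carry small nucleolar RNAs in introns, 9 were lower and 0 higher (median -1.10), led by SNHG1 (54.2 and 50.8 CPM with siNTC and 15.6 and 18 CPM with siTAZ #2).

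Cholesterol synthesis genes were higher. Of 25 genes for cholesterol synthesis and other SREBP2 targets, 22 were higher and 0 lower, with a median log2 fold change of 1.07 (1.06 and 1.08 in the 2 libraries). HMGCS1, which makes HMG-CoA, was at 59.1 and 61 CPM with siNTC and 312 and 303 CPM with siTAZ #2, a log2 fold change of 2.36 (SE 0.10, FDR 8.63e-13). MSMO1, a sterol methyl oxidase, was at 49.6 and 59.5 CPM with siNTC and 303 and 244 CPM with siTAZ #2, and TM7SF2, a sterol reductase, at 8.44 and 8.31 CPM with siNTC and 33.4 and 41 CPM with siTAZ #2. STARD4, a carrier of cholesterol, rose by 1.68. The 3 genes not called included PMVK and INSIG1, with log2 fold changes of -0.06 and 0.11. The lowest value of the list, in the other gene not called, was -0.47. Genes of fatty acid metabolism were called in both directions, 6 lower and 10 higher of 31. The lower share (19.4%) was near the background of 22%, and the higher share (32.3%) was above that of 22.3%. The desaturase FADS2 was at 411 and 419 CPM with siNTC and 1039.8 and 1098 CPM with siTAZ #2 and ACLY, which makes cytosolic acetyl-CoA, at 162 and 165 CPM with siNTC and 408 and 406 CPM with siTAZ #2. HADHA, an enzyme of mitochondrial beta-oxidation, was at 185 and 189 CPM with siNTC and 36.3 and 36.2 CPM with siTAZ #2, and ELOVL2, an elongase of polyunsaturated fatty acids, at 66.5 and 66.5 CPM with siNTC and 16 and 14.3 CPM with siTAZ #2.

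The list of other collagens, laminins and basement membrane genes was mostly higher. Of its 32 genes, 20 were higher and 5 lower, with a median of 0.53 (0.50 and 0.53 in the 2 libraries). Basement membrane genes were not counted apart from the other collagens. LAMB1, a laminin chain found in most laminins, was at 611 and 591 CPM with siNTC and 1647 and 1888 CPM with siTAZ #2, and LAMA5 at 8.5 and 10.9 CPM with siNTC and 48 and 51.5 CPM with siTAZ #2. NID2, which links laminin to collagen IV, was by contrast at 516 and 494 CPM with siNTC and 88.1 and 92.6 CPM with siTAZ #2, a log2 fold change of -2.48 (SE 0.09, FDR 2.86e-13), and COL14A1, a collagen on fibril surfaces, changed by -2.59. The 11 fibrillar collagen genes were divided, with 4 lower and 7 higher. COL3A1 was at 5933 and 5346 CPM with siNTC and 3819 and 4552 CPM with siTAZ #2 and COL24A1 at 4.89 and 5.98 CPM with siNTC and 30.7 and 30.7 CPM with siTAZ #2. COL1A2, given above with the fibroblast markers, was among the lower genes. COL1A1 was called higher by 0.20 (FDR 0.0273), a call that was lost without siNTC replicate 1 (0.14) and without siTAZ #2 replicate 2 (0.15) and whose sign turned with the GC offset (-0.036).

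Enzymes that modify and crosslink collagen held 13 higher genes and 0 lower of 21 (median 0.50). With the GC offset 13 were higher and 2 lower, and the median was 0.36. PLOD2, a lysyl hydroxylase, was at 52.5 and 40.8 CPM with siNTC and 158 and 134 CPM with siTAZ #2, and LOXL2, a lysyl oxidase, at 738 and 771 CPM with siNTC and 1331 and 1549 CPM with siTAZ #2. LOX itself was not called (-0.20, FDR 0.0996). Elastic fiber, fibronectin and matricellular genes were split, 11 lower and 10 higher of 29. ELN, elastin, was at 29.1 and 30.5 CPM with siNTC and 62.4 and 70.3 CPM with siTAZ #2, and the microfibril protein MFAP2 at 35.4 and 31.9 CPM with siNTC and 105 and 111 CPM with siTAZ #2. FBN2, a fibrillin, was at 277 and 280.0 CPM with siNTC and 57.6 and 57.5 CPM with siTAZ #2, and NOV, a relative of CTGF, at 51.7 and 45.4 CPM with siNTC and 8.9 and 11.7 CPM with siTAZ #2. Among small leucine-rich proteoglycans and hyaluronan genes, decorin (DCN, a fibroblast marker) was at 721 and 747 CPM with siNTC and 252 and 233 CPM with siTAZ #2, lumican (LUM) at 125 and 106 CPM with siNTC and 28.7 and 32.2 CPM with siTAZ #2 and the hyaluronan synthase HAS2 at 50.6 and 53.9 CPM with siNTC and 18.1 and 12.9 CPM with siTAZ #2. CD44, the hyaluronan receptor, rose by 0.80, and VCAN, versican, by 0.65.

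In the list of matrix proteases and inhibitors 15 of 33 genes were higher and 5 lower. ADAM19, a membrane metalloprotease, was at 183 and 189.5 CPM with siNTC and 783 and 891 CPM with siTAZ #2, and PLAT, tissue plasminogen activator, at 125 and 122 CPM with siNTC and 507 and 662 CPM with siTAZ #2. MMP11 went from 10 and 7.8 to 36.8 and 55.1 CPM. TIMP3, a matrix-bound inhibitor of metalloproteases, was at 348 and 339 CPM with siNTC and 94.3 and 97.3 CPM with siTAZ #2, and ADAMTS15 and ADAMTS1 had log2 fold changes of -2.44 and -1.61.

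Smooth muscle contractile genes, which mark myofibroblasts, were lower in 16 and higher in 6 of 30, with a median of -0.29 (-0.31 and -0.27 in the 2 libraries). MYLK, the kinase of the myosin light chain, was at 1279 and 1358 CPM with siNTC and 261 and 254 CPM with siTAZ #2, a log2 fold change of -2.35 (SE 0.08, FDR 1.57e-13). Its substrate MYL9 was at 496 and 496 CPM with siNTC and 218 and 207 CPM with siTAZ #2, and vinculin (VCL) at 799 and 857 CPM with siNTC and 316 and 303 CPM with siTAZ #2. LMOD1, which nucleates actin in smooth muscle, changed by -2.20, and the smooth muscle actin ACTG2 by -0.96. LPP, a focal adhesion protein of the same list, was higher, at 30.1 and 29.6 CPM with siNTC and 54.9 and 54.6 CPM with siTAZ #2. The summed smooth muscle and pericyte markers, some of which are on this list, were at 902 to 933 CPM with siNTC and at 681 to 719 CPM with siTAZ #2. Of these 7 markers 3 were lower and 3 higher. ACTG2 was at 435 and 454 CPM with siNTC and 219 and 240 CPM with siTAZ #2. MCAM, by contrast, was at 186 and 175 CPM with siNTC and 261 and 299 CPM with siTAZ #2. Of the 30 contractile genes 25 had a RefSeq promoter, and 6 of these (24%) held a CArG box, the element bound by serum response factor, on either strand, against 1.28% of all promoters. The boxes of MYLK, at chr3:123620583-123620662 (minus strand), and of ACTG2, at chr2:73892878-73892964 (plus strand) of GRCh38.p14, are in capitals. Each start is the first listed for its gene, so the MYLK stretch need not be the promoter of the transcript for the full kinase.

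MYLK: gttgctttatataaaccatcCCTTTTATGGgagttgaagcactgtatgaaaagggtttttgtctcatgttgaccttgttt
ACTG2: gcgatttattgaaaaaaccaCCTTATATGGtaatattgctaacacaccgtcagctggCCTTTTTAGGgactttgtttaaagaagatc

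Actin regulators and adhesion genes were split. Of 43 actin regulators 16 were lower and 12 higher. The formin DIAPH1 was at 149 and 149.5 CPM with siNTC and 61.8 and 65.5 CPM with siTAZ #2, and gelsolin (GSN), which severs filaments, at 263 and 252 CPM with siNTC and 516 and 530.0 CPM with siTAZ #2. Integrins and focal adhesion genes held 10 lower and 11 higher of 26. The lower ones included the adaptor PXN (238 and 233 CPM with siNTC and 153 and 159.7 CPM with siTAZ #2) and the kinase PTK2, or FAK (-0.52). The integrin chains ITGB5 and ITGB3, receptors for vitronectin, were higher, ITGB5 at 178 and 171 CPM with siNTC and 696 and 742 CPM with siTAZ #2 and ITGB3 at 49.6 and 50.7 CPM with siNTC and 173 and 189 CPM with siTAZ #2. ITGA10, a collagen receptor chain, rose by 1.86. EHD2, an ATPase of the neck of caveolae, was at 807 and 823 CPM with siNTC and 244 and 272 CPM with siTAZ #2.

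In the TGF-β pathway 7 of 18 genes were lower and 8 higher. The ligand TGFB1 was at 74.5 and 65.4 CPM with siNTC and 302 and 313 CPM with siTAZ #2, a log2 fold change of 2.14 (SE 0.10, FDR 4.66e-12), while the ligand TGFB3 changed by -1.65. The receptors moved apart. TGFBR1, the type I receptor, was at 14 and 14.9 CPM with siNTC and 69.7 and 71.1 CPM with siTAZ #2, TGFBR2, the type II receptor, at 481 and 453 CPM with siNTC and 171 and 172 CPM with siTAZ #2, and the coreceptor TGFBR3 at 88.5 and 95.2 CPM with siNTC and 11.9 and 15.4 CPM with siTAZ #2. SMAD7 and PMEPA1, feedback inhibitors that TGF-β induces, rose by 1.81 and 1.69. The BMP list, with 6 lower and 7 higher of 29, had shares near the background (20.7% and 24.1%, against 22% and 22.3%). In it the antagonists GREM1 (881 and 902 CPM with siNTC and 301 and 278 CPM with siTAZ #2) and FST (576 and 581 CPM with siNTC and 133 and 124 CPM with siTAZ #2) were lower. SMAD5, which carries the BMP signal, was higher, at 31.4 and 31.5 CPM with siNTC and 111 and 93.2 CPM with siTAZ #2.

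Growth factor genes also moved in both directions (10 lower and 14 higher of 33). PDGFB was almost undetected in control cells, at 0.19 and 0.0629 CPM with siNTC and 3.9 and 3.27 CPM with siTAZ #2. GDNF was at 3.3 and 5.66 CPM with siNTC and 29.4 and 34.2 CPM with siTAZ #2 and ANGPTL4, an inhibitor of lipoprotein lipase, at 2.79 and 6.1 CPM with siNTC and 31.1 and 36.2 CPM with siTAZ #2. VEGFC, a lymphatic growth factor, was at 108 and 109 CPM with siNTC and 24.2 and 24.4 CPM with siTAZ #2, and BDNF at 120.2 and 132 CPM with siNTC and 52.8 and 54 CPM with siTAZ #2. In the Wnt list, the ligand WNT5A was at 267 and 279 CPM with siNTC and 809.7 and 731 CPM with siTAZ #2, WNT2 at 14.3 and 17.4 CPM with siNTC and 4.22 and 3.33 CPM with siTAZ #2 and the inhibitor DKK1 at 32 and 31.3 CPM with siNTC and 9.64 and 11.1 CPM with siTAZ #2. In the Notch list the ligand JAG1 was at 21.1 and 28.1 CPM with siNTC and 7.05 and 7.2 CPM with siTAZ #2, the receptor NOTCH3 at 11.5 and 11.5 CPM with siNTC and 32.8 and 34.2 CPM with siTAZ #2 and RBPJ, the DNA-binding factor of the pathway, at 173 and 168 CPM with siNTC and 409.7 and 355 CPM with siTAZ #2.

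Cytokine genes gave 9 lower and 7 higher genes of 24. Besides IL6R, the interleukin-1 receptor IL1R1 was at 121 and 128 CPM with siNTC and 23.4 and 26.7 CPM with siTAZ #2, while IL11, a cytokine of the interleukin-6 family, was at 10.8 and 12.6 CPM with siNTC and 45.1 and 44.2 CPM with siTAZ #2. Of 34 interferon-induced genes, 3 were lower and 5 higher (median 0.16), shares that lay under the background. TRIM22 (39 and 36.1 CPM with siNTC and 109 and 102 CPM with siTAZ #2) and USP18 (13.9 and 9.57 CPM with siNTC and 26.2 and 25.6 CPM with siTAZ #2) were among the higher ones. Immediate early factors held 13 higher and 6 lower genes of 27, with JUNB at 22.3 and 17.2 CPM with siNTC and 80.5 and 78.2 CPM with siTAZ #2 and MYC at 64 and 63.4 CPM with siNTC and 27.5 and 19.6 CPM with siTAZ #2. Among mesenchymal transcription factors, PRRX1 was at 135 and 135 CPM with siNTC and 23 and 21.5 CPM with siTAZ #2, SNAI2 (SLUG) at 99.6 and 101 CPM with siNTC and 34.7 and 31.5 CPM with siTAZ #2 and RUNX2 at 7.93 and 9.69 CPM with siNTC and 35.4 and 36.1 CPM with siTAZ #2.

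The lists of oxidative phosphorylation (11 lower and 23 higher of 74), glycolysis and hypoxia (10 and 8 of 30), MHC class I (2 and 4 of 15) and metallothioneins (0 and 2 of 8) had medians between -0.06 and 0.14. Oxidative phosphorylation had a lower share of 14.9% and a higher share of 31.1%, against 22% and 22.3% of all genes. For glycolysis and hypoxia these shares were 33.3% and 26.7%. MHC class I and metallothioneins held too few genes to set them apart. Lysosome and autophagy genes held 17 higher and 3 lower of 30, with the lysosomal protease CTSZ at 173 and 165 CPM with siNTC and 335 and 383 CPM with siTAZ #2 and the glucosidase GAA at 61.9 and 63.6 CPM with siNTC and 114 and 138 CPM with siTAZ #2.

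Where siTAZ #2 differed from the other TAZ siRNA was tested directly, in a fit of the 4 siTAZ libraries. In siTAZ #1 replicate 2 few counts fell on genes from the end of chromosome 22 onward, on X and on Y. These genes and those without a position were left out, which left 12799 genes tested. Of these 2388 (18.7%) were lower and 2177 (17.0%) higher with siTAZ #2 than with siTAZ #1. WWTR1 was at 27.8 and 29.4 CPM with siTAZ #1, and the level with siTAZ #2 was higher by 0.71 on the log2 scale (SE 0.15, FDR 0.0033). Mitotic kinases and checkpoint proteins were lower with siTAZ #2 than with siTAZ #1 in 20 and higher in 0 of 22 (median -1.29), spindle genes in 23 and 0 of 26, and replication genes in 31 and 2 of 48. KIF20A was at 249 and 199 CPM and MCM3 at 212 and 179 CPM with siTAZ #1. For cholesterol synthesis 16 of 22 genes were higher and 0 lower with siTAZ #2, and for chemokines and interleukins 21 of 32 were lower and 3 higher. For p53 targets the counts were 4 lower and 7 higher of 26, with a median difference of 0.04, and CDKN1A was at 702 and 600.3 CPM with siTAZ #1 (difference 2.42, FDR 2.35e-07) while GDF15 was at 215 and 195 CPM.

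The lists were also set side by side against the same siNTC libraries, which both comparisons share. The same genes were left out here, so medians of the siTAZ #2 libraries can differ from those given above. For spindle genes the list medians in the single libraries were 0.11 and 0.23 with siTAZ #1 and -0.84 and -0.98 with siTAZ #2. They were 0.14 and 0.11 with siTAZ #1 and -0.44 and -0.61 with siTAZ #2 for replication genes. Amino acid response genes lay below siNTC in all 4 siTAZ libraries (-0.47 and -0.62 with siTAZ #1 and -0.99 and -1.12 with siTAZ #2), and p53 targets above it (0.60 and 0.63 with siTAZ #1 and 0.67 and 0.61 with siTAZ #2). Cholesterol synthesis genes were at 0.40 and 0.38 with siTAZ #1 and 1.11 and 1.16 with siTAZ #2. Contractile genes were at -0.04 and -0.07 with siTAZ #1 and -0.30 and -0.26 with siTAZ #2.

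**Figure D5:**
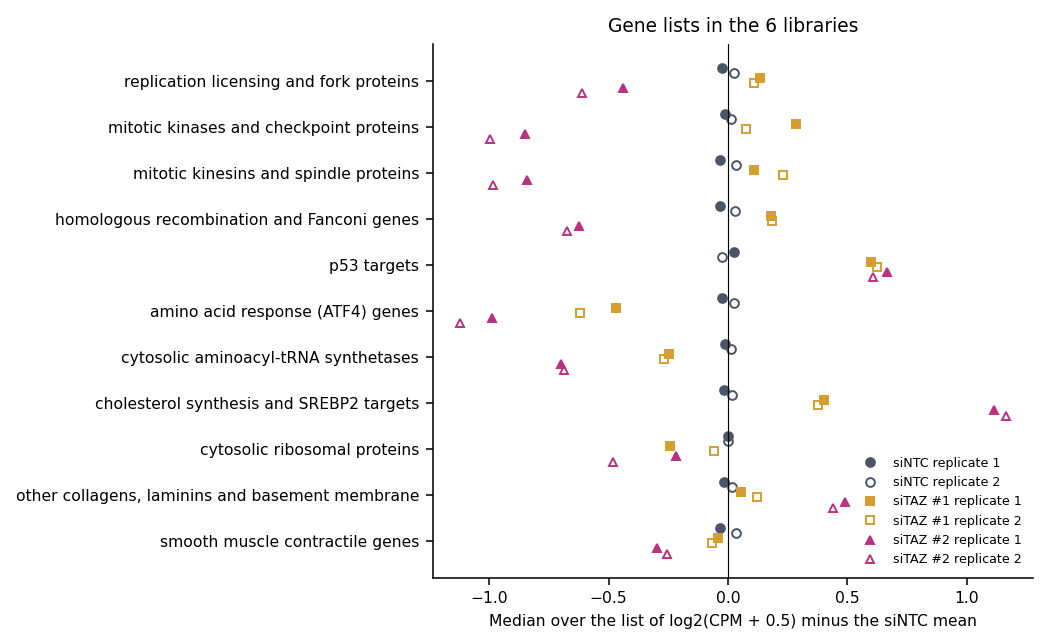
For 11 gene lists, each symbol is the median over the list of log2(CPM + 0.5) minus the mean of the siNTC libraries in 1 library (circles, siNTC; squares, siTAZ #1; triangles, siTAZ #2; filled, replicate 1; open, replicate 2). Spindle, mitotic kinase, replication and recombination genes lie below siNTC in the siTAZ #2 libraries and at or above it in the siTAZ #1 libraries. Genes of the region with nearly missing counts in siTAZ #1 replicate 2 and genes without a position were left out of these medians.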

How the data were processed

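RNA from 6 HFL-1 cultures, 2 each with siNTC, siTAZ #1 and siTAZ #2, was sequenced by the authors on an Ion Proton, and the reads were aligned to hg19 with TMAP and counted with HTSeq 0.6.1. The deposited values are raw counts per gene symbol, without normalization. Strand setting and counting mode are not given in the sources used here, so overlapping, antisense and near-identical genes may share reads. Of 23368 entries, 13 were dates rather than symbols and were left out. GRCh37 positions came from GENCODE for 21478 symbols, with 1922 matched by a synonym.

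The 4 siNTC and siTAZ #2 libraries (15990711 to 21009532 counts) were analyzed in R 4.3.3 with edgeR 4.0.16: filterByExpr, TMM scaling, the quasi-likelihood test (glmQLFit and glmQLFTest) and Benjamini-Hochberg adjustment over 13754 genes, with a threshold of FDR 0.05. Standard errors follow from each gene's fold change and F value. The procedure was first tested on simulated data. P-values measure only the spread between these libraries, and with 2 libraries a group no permutation can reach p = 0.05. siTAZ #2 was compared with siTAZ #1 in a fit of those 4 libraries, without 1167 symbols in the region where counts of siTAZ #1 replicate 2 are nearly missing and 1877 symbols without a position.

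The comparison, the 58 gene lists and the cell type markers were chosen with earlier results of these data known. Genes were named by rule. The rule took WWTR1 and the Hippo list, and the 15 lowest and 15 highest called genes. These lowest and highest genes came from those with a mean count of at least 50 over the 4 libraries and groups that did not overlap. It also took up to 4 called genes in each direction with the largest change from each list. The 5 called genes with most counts in each direction and the 5 largest differences between the siRNAs on each side were added. Uncalled list genes were named only with their values. ATF4 lies outside the rule and was named after its values were seen. A few genes that the rule names are not reported here. Promoters (250 bases before to 50 after the start, RefSeq, GRCh38.p14) were matched to 10489 genes tested (76.3%), by the first start listed. Shares of motifs are given only for lists with a promoter for at least 80% of genes, and not for all called genes.

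Alternatives were DESeq2 1.42.0, edgeR's exact test, scaling by RLE, by upper quartile or by totals alone, all genes without the filter, genes with a mean count of 50 or more, all 6 libraries fitted together, a replicate block, an FDR of 0.1, offsets for GC content and transcript length (known for 95.8% of genes tested), libraries thinned to equal totals, and leaving out each library in turn.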

Additional observations from a re-analysis of the deposited data

Results flagged for a closer look

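For 10 genes the level with siTAZ #2 differed most from that with siTAZ #1 in the direct test of the 2 siRNAs, among genes called against siNTC. Lower with siTAZ #2 were IL1R1 (log2 difference, siTAZ #2 minus siTAZ #1, of -4.38, FDR 1.04e-08), SERPINB2, a serine protease inhibitor (-4.08), ZNF385D (-4.07), ADH1B (-4.07) and the neutrophil chemokine CXCL1 (-4.04). IL1R1 was at 121 and 128 CPM with siNTC, 546 and 556 with siTAZ #1 and 23.4 and 26.7 with siTAZ #2, and CXCL1 at 14.1 and 14.5, 53.8 and 62.1 and 2.97 and 3.75 CPM, so that the siRNAs lay on opposite sides of the control in both genes. ADH1B was at 9.84 and 9.82 CPM with siNTC, 5.44 and 3.14 with siTAZ #1 and 0.278 and 0.181 with siTAZ #2, on the same side with both.

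Higher with siTAZ #2 were TYRP1, a melanosome enzyme (5.67, FDR 1.52e-05), PDGFB (4.83), the serotonin receptor HTR1D (4.49), SLITRK1 (4.38) and the fatty acid transport protein SLC27A6 (4.31). All 5 were under 1 CPM in the siNTC and siTAZ #1 libraries, and between 2.23 CPM (SLITRK1) and 9.44 CPM (TYRP1) in the siTAZ #2 libraries. The call of SLITRK1 against siNTC was lost with DESeq2 and in the fit of all 6 libraries. Levels with siTAZ #1 were scaled in the fit of the siTAZ libraries and the others in the fit with siNTC.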

How the results depend on the processing

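The counts of 3024 lower and 3073 higher genes stayed within 1.5 times under the alternatives run, apart from 1983 higher genes in the fit of all 6 libraries (2021 lower). DESeq2 called 2805 and 2641. The submitters' replicate numbers are not shown to pair the cultures (correlation of same-numbered deviations between groups 0.02, 2 pairs), and a replicate block gave 3135 lower and 3206 higher genes. Leaving out 1 library gave 2210 to 3042 lower and 2205 to 2975 higher genes, the fewest without a siNTC library. WWTR1 stayed between -1.61 and -1.53. Against siTAZ #1, 1721 to 2412 genes were lower and 1518 to 2182 higher, and 1499 and 1294 with the genes of the near-missing region kept.

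The medians of the lists named in this paragraph kept their direction, apart from that of metallothioneins (-0.02, and 0.06 with the GC offset). Among all 58 lists up to 5 changed sign under an alternative (5 without siNTC replicate 1, 4 with library totals and 3 with the GC offset). That of p53 targets was 0.63 with library totals, 0.53 with the GC offset and 0.51 to 0.70 without 1 library, and that of ATF4 genes -1.19 with the GC offset and -1.14 to -1.02. Other collagens were at 0.54 with upper-quartile scaling, 0.58 with library totals, 0.55 with 6 libraries, 0.48 with the GC offset and 0.47 to 0.61 without 1 library. Cholesterol synthesis was at 1.08, 1.12, 1.10 and, over genes with a mean count of 50 or more, 1.11, and at 1.06 to 1.11 without 1 library. Without 1 library replication genes lay at -0.61 to -0.47, mitotic kinases at -1.01 to -0.88, spindle genes at -0.97 to -0.78 and ribosomal proteins at -0.48 to -0.23.

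With the GC offset BOP1 (-0.039, FDR 0.81), COL1A1 (-0.036, FDR 0.61) and PRKCDBP (-0.25, FDR 0.086) changed sign and were no longer called, and the cause was not tested. Of 426 named genes that were called, 325 kept their call under every alternative and 83 lost it without at least 1 library. Motif shares over called genes, and over those changed at least 2-fold, are not given, since promoters were known for under 80% of them. Calls of low genes are limited by depth, and 2 libraries a group give a spread that is shared across genes.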

Other observations

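Among the called genes with most counts, ACTG1 (cytoplasmic actin, 7201 and 7439 CPM with siNTC and 5802 and 5828 CPM with siTAZ #2), EEF1A1 (the elongation factor that delivers tRNAs, 8787 and 9692 CPM with siNTC and 5989 and 5635 CPM with siTAZ #2) and FN1 (fibronectin, 8133 and 8099 CPM with siNTC and 6120.2 and 6185 CPM with siTAZ #2) were lower, and TGFBI, a matrix protein induced by TGF-β (3336 and 3130.5 CPM with siNTC and 5935 and 6876 CPM with siTAZ #2), and IGFBP5, an IGF-binding protein (2726 and 2647 CPM with siNTC and 5744 and 6301 CPM with siTAZ #2), were higher. ACTG1 and EEF1A1 have many pseudogenes, and how shared reads were counted is not given in the sources used here. The calls of ACTB (-0.25), COL6A3 (0.22) and CALR (0.30), also among the genes with most counts, were lost without siNTC replicate 2 (ACTB, -0.18), without siNTC replicate 1 (COL6A3, 0.17) or without siTAZ #2 replicate 2 (COL6A3, 0.16, and CALR, 0.15).

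Factors of positional identity moved with siTAZ #2 as well. Of 30 HOX and lung mesenchyme factors 13 were lower and 12 higher, against 22% and 22.3% of all genes. The HOX cofactor MEIS2 (43.2 and 52.6 CPM with siNTC and 18.2 and 16.3 CPM with siTAZ #2) and the Hedgehog effector GLI3 (47.1 and 51.8 CPM with siNTC and 21.9 and 22.8 CPM with siTAZ #2) were lower, whereas HOXB2 was higher, at 28.9 and 22.5 CPM with siNTC and 59.4 and 55.8 CPM with siTAZ #2. Aldehyde and alcohol dehydrogenases held 7 lower and 3 higher genes of 15, among them ALDH1B1 (41.4 and 45.2 CPM with siNTC and 11.2 and 10.8 CPM with siTAZ #2). Of 13 prostaglandin genes 4 were lower and 4 higher, and PTGS1 (cyclooxygenase-1) was at 159.6 and 157 CPM with siNTC and 341 and 386 CPM with siTAZ #2. In the antioxidant list of NRF2 14 of 26 genes were lower, with HMOX1 (heme oxygenase) at 45.6 and 40.1 CPM with siNTC and 21.2 and 20.8 CPM with siTAZ #2 and thioredoxin (TXN) at 107 and 100.3 CPM with siNTC and 59.4 and 42.4 CPM with siTAZ #2, while ME1, malic enzyme, was at 72.8 and 83.2 CPM with siNTC and 121 and 118 CPM with siTAZ #2. In the chaperone list of the endoplasmic reticulum, HSP90B1 was at 642 and 642 CPM with siNTC and 1209.7 and 982 CPM with siTAZ #2 and the unfolded protein response factor XBP1 at 132 and 153 CPM with siNTC and 44.3 and 43.5 CPM with siTAZ #2.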
